A study of Mus musculus with 5 samples.

Results

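The promoters of 9 X-linked mouse genes are described here on both X chromosomes of female fibroblasts: Tsc22d3, Rai2, Cnksr2, Bex2, Syap1, Alg13, Phka1, Xk and Fam199x. They were picked because an earlier look at these data placed them among the promoters with the largest losses of CpG methylation (mC) from the inactive X (Xi) after depletion of Setdb1. Their Xi difference between the groups is therefore a description of how they were chosen, and no test is given for it. The active X (Xa) played no part in that choice. The 9 genes are among 2613 X genes with a start site in the GENCODE M21 annotation, of which 804 had at least 1 called position on the castaneus X within 1 kb of a start site. The window of a gene was every called position within 1 kb of any of its start sites. This gave 161 castaneus and 100 domesticus positions for the 9 genes.

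DNA methylation was recorded by enhanced reduced representation bisulphite sequencing (eRRBS), which cuts DNA with MspI and so reads mostly CpG-rich fragments, in mouse embryonic fibroblasts (MEFs) taken at E13.5 from 129/C57 dams and CAST (castaneus) sires. The 3 Female control libraries were Setdb1+/+ Xist-deltaA/+ and carried a Nonsilencing hairpin. The 2 Setdb1 depleted libraries were Setdb1+/gt Xist-deltaA/+, where gt is a gene trap, and carried the hairpin shSetdb1, so genotype and hairpin cannot be told apart. All cells were transduced with retrovirus in polybrene and selected with puromycin, and all carried the Xist deltaA allele on the maternal X. That allele cannot silence the X it lies on, so by design the castaneus X is the Xi in every cell and the domesticus X the Xa. Whether every cell followed that choice was not measured, and markers of the fibroblast cannot be read from methylation calls. The labels do not say whether the libraries of a group came from separate embryos, so p-values measure the spread between these libraries only.

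Each library held 9440874 to 10558931 calls per allele, of which 119431 to 135280 were on the castaneus X and 157274 to 174461 on the domesticus X. Over the whole castaneus X, mC was 58.4, 57.4 and 56.2% in controls, against 53.3 and 55.8% in depleted libraries. The domesticus X had 44.4 to 45.5% in all 5 libraries. A window was measured when it held at least 3 positions and more than 20 calls in every library, which 190 windows on the Xi met, the 9 genes included.

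Female mammals silence one X chromosome in each cell. The long RNA Xist coats that chromosome, histone marks such as H3K27 and H3K9 methylation follow, and CpG islands at the promoters of silenced genes gain DNA methylation, which helps to hold them silent. The same islands stay largely free of methylation on the Xa. Setdb1 is an enzyme that methylates histone H3 at lysine 9, a modification typical of compacted chromatin that can work together with DNA methylation.

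The stretches printed here hold many of the Xi calls of 6 of the genes and are shown because part of the differences described later rests on the CpGs in them. They are reference letters (GRCm38/mm10, C57BL/6J), not castaneus reads, given 5′ to 3′ on the strand of the gene in lower case. Capitals mark each CpG at which at least 1 strand was called on the Xi. The called stretch of Cnksr2 lies in an untranslated exon and that of Rai2 in an untranslated exon and an intron, and neither is printed. Further called stretches of Phka1 and Fam199x, in untranslated exons, had larger differences than their upstream stretches (-11.3 and -21.8 points) and are not printed either.
Xk, chrX:9272654-9272708, + strand, upstream of the start: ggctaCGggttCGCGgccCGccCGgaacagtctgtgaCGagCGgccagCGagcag
Fam199x, chrX:137049541-137049593, + strand, upstream of the start: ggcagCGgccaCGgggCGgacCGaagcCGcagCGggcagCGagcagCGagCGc
Phka1, chrX:102644281-102644350, - strand, upstream of the start: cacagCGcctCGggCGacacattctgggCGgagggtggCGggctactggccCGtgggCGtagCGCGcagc
Syap1, chrX:162888104-162888192, - strand, coding exon: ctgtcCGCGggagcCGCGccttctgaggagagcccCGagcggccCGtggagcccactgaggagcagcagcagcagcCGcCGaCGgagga
Bex2, chrX:136067758-136067845, - strand, intron: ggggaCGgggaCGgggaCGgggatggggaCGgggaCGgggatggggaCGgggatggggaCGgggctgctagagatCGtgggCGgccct
Tsc22d3, chrX:140542628-140542648, - strand, noncoding exon: ccctgCGgctgctgCGtggtg
Tsc22d3, chrX:140599309-140599475, - strand, intron, 1184 to 1350 bp after the upstream start: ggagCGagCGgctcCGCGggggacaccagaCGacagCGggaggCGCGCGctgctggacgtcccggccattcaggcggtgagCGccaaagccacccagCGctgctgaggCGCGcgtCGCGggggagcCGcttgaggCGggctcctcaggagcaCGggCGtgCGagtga

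Xi mC was lower in the depleted mean at all 9 promoters, and at 131 (68.9%) of the 190 Xi windows. The value of a gene is the mean over its positions with more than 20 calls in every library, which 5 genes had, and otherwise the methylated share of all its calls. By these values both depleted libraries lay under all 3 controls in 7 of the 9 genes, and the same held for 23.7% of the 190 Xi windows. The genes were chosen on this contrast, so nothing is read from the excess. With calls pooled over all positions of a window the count was 8 of 9, against 25.8% of windows, and windows with both depleted libraries above all controls made up 1.58%. The median pooled difference was -16.4 percentage points over the 9 genes and -4.25 points over all 190 windows. In controls the genes had a median of 51.1% mC, close to the 52.1% of all windows. As a share of the control level the difference had a median of 39.3%, with the least at Tsc22d3 (17.9%) and the most at Rai2 (56.3%).

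The 9 genes were not simply the 9 largest losses. In the order of the pooled difference they took places 5 (Cnksr2), 8 (Syap1), 10 (Fam199x), 12 (Rai2), 15 (Bex2), 16 (Xk), 17 (Alg13), 42 (Phka1) and 48 (Tsc22d3), so 39 other windows lay among the first 48. The window next above Cnksr2, that of Ercc6l, had -27.9 points against -26.3 for Cnksr2. The next window below Tsc22d3 had -9.90 points against -9.93 for Tsc22d3. Among the 118 windows with at least 100 calls in every library, 7 of the genes were measured and took 6 of the first 10 places, with Phka1 at place 26. Cnksr2 and Tsc22d3 fell under that depth, which was set after the values were seen. The order rests on the contrast by which the genes were chosen, so nothing is read from these places. In what follows they are called by name, since "losing most" describes some of them and not others.

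**Figure D1:**
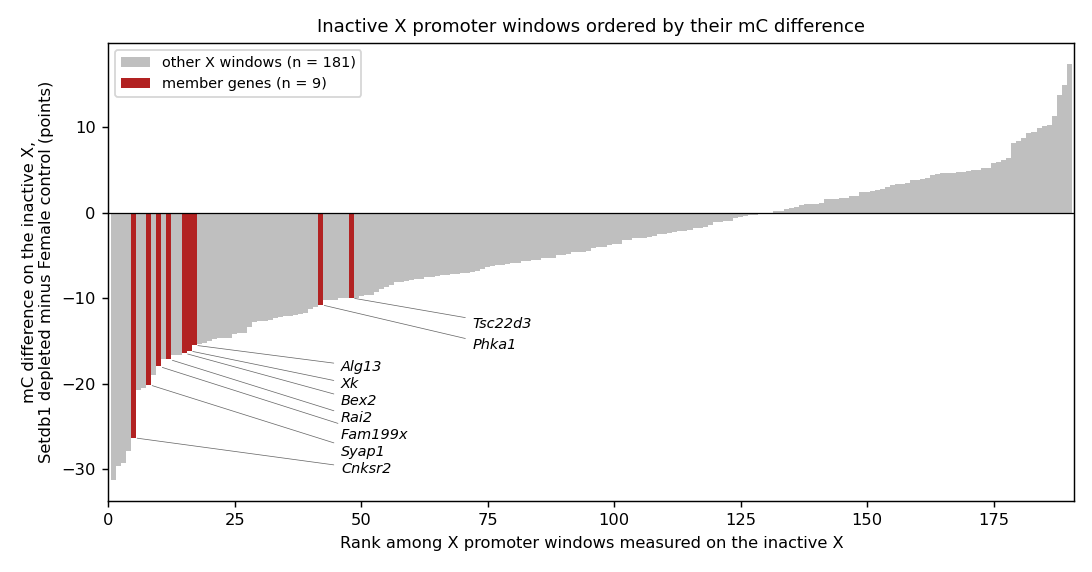
Difference in pooled Xi mC, Setdb1 depleted mean minus Female control mean in percentage points, for 190 X promoter windows in order, 1 bar a window. The 9 genes (red) stand between places 5 and 48 and have differences from -26.3 to -9.93 points, while the other 181 windows (grey) run from -31.3 to 17.5.

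The transcriptional regulators come first. Rai2 is a nuclear protein named for its induction by retinoic acid, and 9 of its 12 called positions lie in an untranslated exon. Over its 5 deep positions (+204 to +252 from a start site) Xi mC was 27.1, 27.7 and 31.5% in controls, against 14.8 and 13.3% in depleted libraries. The groups did not overlap and the libraries of each group lay close together, with means of 28.8% ± 2.39 (SD, n = 3) and 14.1% ± 1.05 (SD, n = 2). All its deep calls came from 1 genome strand, and its reads with at least 3 calls shared a single first position in each depleted library.

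Tsc22d3 encodes the glucocorticoid-induced leucine zipper protein, a regulator of transcription in the immune and stress response. Its 4 called positions within 1 kb of a start lie in a noncoding exon and had few calls, 60.9% of 64, 59.7% of 62 and 46.2% of 26 in controls, against 46.2% of 26 and 45.2% of 62 in depleted libraries. Control replicate 3 and depleted replicate 1 had the same value, so the groups were not apart, and the 95% Wilson interval of each of these libraries ran from 28.8 to 64.5%. Intervals cover counting error only, since reads without molecular identifiers can be copies of 1 molecule. On the forward genome strand the difference was -2.15 points, with the groups overlapping. On the reverse strand it was -40 points, from only 2 to 28 calls a library.

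The difference at Tsc22d3 was larger outside that window. Between 1189 and 1345 bp downstream of its most upstream start, in an intron, 20 positions with 25 to 54 calls each had Xi mC of 46.7, 41.2 and 39.1% in controls, against 23.1 and 28.7% in depleted libraries. There the groups did not overlap, at 42.3% ± 3.94 (SD, n = 3) and 25.9% ± 3.93 (SD, n = 2). The depleted mean was lower at 19 of the 20 positions, and both depleted libraries lay under all controls at 11. Among Xi positions within 1 kb of any X start these shares were 62.7 and 18.6%. The shares were not computed for other X positions at 1 to 2 kb. Many of the 20 positions are called by the same reads and are not independent, so nothing is read from these counts.

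Genes of signalling come next. Cnksr2 encodes a scaffold that links Ras signalling to the synapse, and its 15 called positions all lie in an untranslated exon, +122 to +211 from the start. Its pooled Xi mC was 56.6, 46.2 and 50.5% in controls, against 21.9 and 27.6% in depleted libraries, from 91 to 210 calls. Every depleted value was thus far under every control, at 24.8% ± 4.02 (SD, n = 2) against 51.1% ± 5.27 (SD, n = 3). The difference of -26.3 points was the largest of the 9 genes, although all its calls came from 1 genome strand and no position passed 20 calls in every library.

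Bex2, of the brain expressed X-linked family of small proteins tied to cell survival, was read within an intron that holds a tandem run of a short G-rich unit with a CpG in most copies (sequence above). Its pooled Xi mC was 51.1, 54.5 and 54.9% in controls, against 36.2 and 38.1% in depleted libraries. The groups were separate in the pooled calls but not in the deeper part of them. On the forward genome strand, at 6 positions with up to 18 to 35 calls, mC was 49.8, 56.5 and 65.4% in controls, against 53.0 and 52.3% in depleted libraries, which overlap. On the reverse strand, with at most 6 to 16 calls a position, it was 56.4, 52.8 and 34.6% against 8.64 and 20.8%. The pooled difference of -16.4 points thus came mainly from the shallow strand, where it was -33.2 points, against -4.54 points on the other. In the reference, 43 of the 88 bases of this stretch are marked as repeats. Whether all its reads came from this copy was not tested.

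Syap1, a protein found at synapses and linked to Akt signalling, was read in a coding exon, +260 to +338 from the start. Over its 6 deep positions Xi mC was 69.6, 61.9 and 67.5% in controls, against 42.9 and 43.1% in depleted libraries. The groups stood well apart and the depleted libraries were almost the same, at 43.0% ± 0.0982 (SD, n = 2) against 66.3% ± 3.99 (SD, n = 3). At 5 of the 6 positions both depleted libraries lay under all controls, and the differences ran from -33.5 to -11.3 points. These 6 positions were all on the reverse genome strand. In pooled calls the difference was -22.7 points there and -10.1 on the forward strand. On the forward strand +335 had 81.6, 90.6 and 77.5% in controls and 92.0 and 94.1% in depleted libraries, higher in both. Those depleted values came from only 25 and 17 calls. With the same numbers of calls, +338 had 80.3, 62.3 and 67.5% against 32.0 and 47.1%, lower in both, and at +332 the groups overlapped.

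Enzymes of metabolism follow. Alg13 is the catalytic subunit of an enzyme that adds N-acetylglucosamine early in the making of N-linked glycans. It has 11 annotated starts, and its 19 called positions lie in introns (11), untranslated exons (5), a coding exon (1) and outside the gene model (2). Its pooled Xi mC was 43.0, 33.0 and 37.1% in controls, against 19.4 and 25.1% in depleted libraries, from 179 to 412 calls. The groups did not overlap, with means of 37.7% ± 5.02 (SD, n = 3) and 22.3% ± 4.01 (SD, n = 2). The difference in pooled calls was -10.6 points on the forward genome strand and -19.8 on the reverse strand, which had only 18 to 160 calls, and it was -10.3 over the 7 positions with more than 10 calls in every library.

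Phka1 is the muscle form of the regulatory subunit of phosphorylase kinase, which starts the breakdown of glycogen. Its 15 deep positions had Xi mC of 54.3, 50.0 and 51.7% in controls, against 44.3 and 40.1% in depleted libraries. The groups were apart, at 52.0% ± 2.13 (SD, n = 3) and 42.2% ± 2.95 (SD, n = 2), but by only -9.79 points, and the positions differed widely among themselves. In the untranslated exon the stretch from +109 to +182 had 59.1, 65.8 and 51.6% against 46.1 and 49.0%. In the upstream stretch from -104 to -35 it had 51.8, 39.9 and 50.5% against 43.6 and 33.6%, and there the libraries of the groups overlapped. The position at +147 stayed at 83.3 to 100% in all 5 libraries, and only 3 of the 15 positions had both depleted libraries under all controls.

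Xk, a membrane protein bound to the Kell blood group protein, gave the most positions within 1 kb of a start with more than 20 calls in every library. Of its 18 deep positions 16 form a cluster from -97 to -53, both strands of 8 CpGs in the upstream stretch shown. Over the 18 positions Xi mC was 36.2, 31.9 and 26.9% in controls, against 10.9 and 19.9% in depleted libraries. The groups did not overlap, and depleted replicate 1 was the lowest. Means were 31.7% ± 4.67 (SD, n = 3) and 15.4% ± 6.40 (SD, n = 2). Within the upstream cluster the depleted mean was lower at every position, in calls from both strands. A position in an intron at +611 went the other way, with 64.4, 86.5 and 89.1% in controls, against 87.8 and 89.4% in depleted libraries. With only the 5 positions that had more than 40 calls, this intron position among them, the difference was -7.03 points in place of -16.2. The upstream positions among these, at -64, -60 and -53, had differences of -10.8, -6.18 and -9.66 points, and the groups overlapped at -60 and -53.

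Fam199x was the least stable of the genes with deep positions. Its 9 deep positions, all on the forward strand from -48 to -3, had Xi mC of 52.4, 40.6 and 34.0% in controls, against 17.2 and 35.9% in depleted libraries. Depleted replicate 2 lay above control replicate 3, so the groups overlapped. In pooled calls the reverse strand had 54.2, 56.6 and 37.1% against 38.9 and 42.6%, an overlap too. Its difference was -8.55 points against -18.5 on the forward strand. The reverse strand was shallow, with 36 to 179 calls a library and at most 4 to 20 calls a position. Over the same 9 positions the difference of -15.8 points was -6.45 without depleted replicate 1 and -25.1 without depleted replicate 2. With pooled calls the libraries were just apart, at 39.1% in the lowest control and 37.4% in the higher depleted library. A stretch in the untranslated exon, from +111 to +201 and without deep positions, had a difference of -21.8 points. Its pooled Xi mC was 46.8, 47.9 and 45.0% in controls, against 14.2 and 35.4% in depleted libraries, with no overlap.

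**Figure D2:**
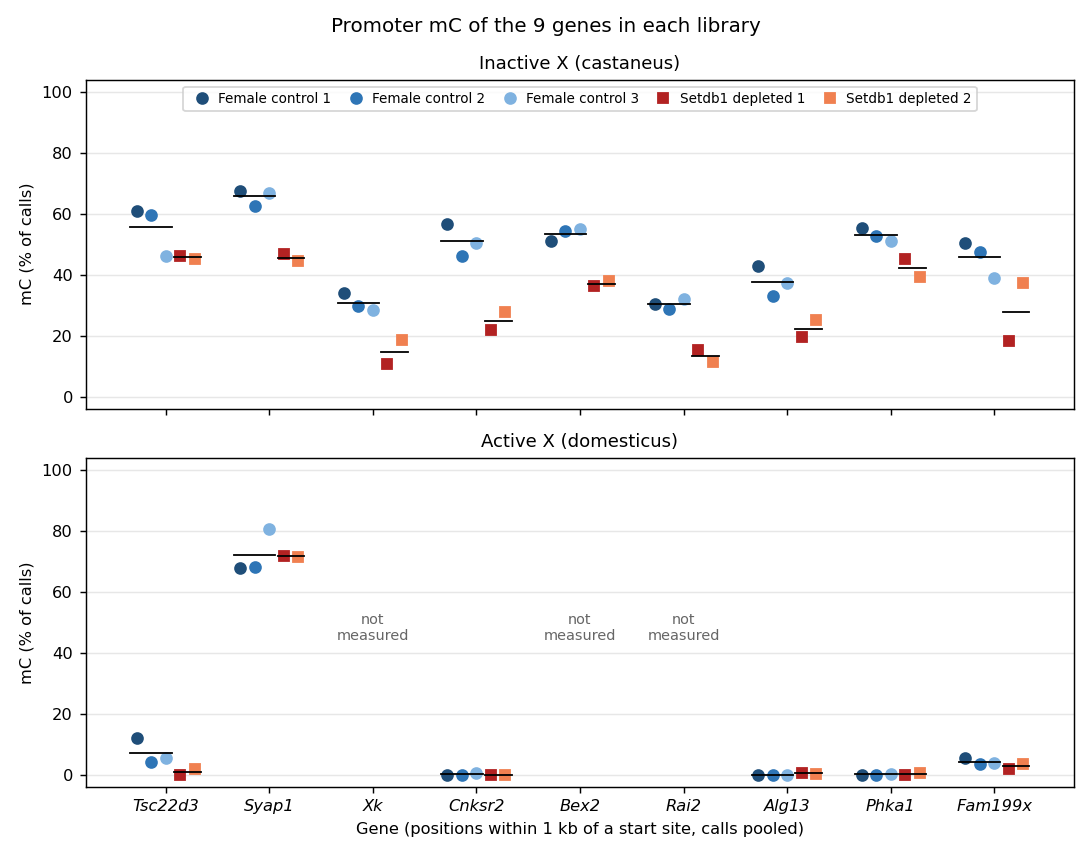
Pooled mC in percent of calls at the promoters of the 9 genes, for the Xi (castaneus, upper panel) and the Xa (domesticus, lower panel), with 1 point a library (circles, 3 Female control, squares, 2 Setdb1 depleted) and a black line at each group mean. On the Xi the depleted squares lie under all control circles at every gene but Tsc22d3, and on the Xa all genes measured are at 12.1% or lower except Syap1, which was read at other positions there.

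Single positions were compared over the 5 genes that had deep ones. Of their 53 positions the depleted mean was lower at 47, with a median of -17.1 points, and it was lower at 432 (62.7%) of all 689 Xi positions within 1 kb of an X start. Both depleted libraries lay under all controls at 26 of the 53 (49.1%), and the same was true of 18.6% of the 689. Over those 689 positions the median was -3.04 points. Positions of 1 gene are called by the same reads and are not independent. The difference varied in size within a gene. At Fam199x the neighbouring positions -32 and -26 had differences of -32.8 and -9.63 points. The last deep position before the start, at -3, had 32.4, 76.9 and 60.6% in controls and 41.9 and 71.4% in depleted libraries, so that the group means nearly met. At Syap1 the position with the most mC in controls (+269) also had the largest difference.

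**Figure D3:**
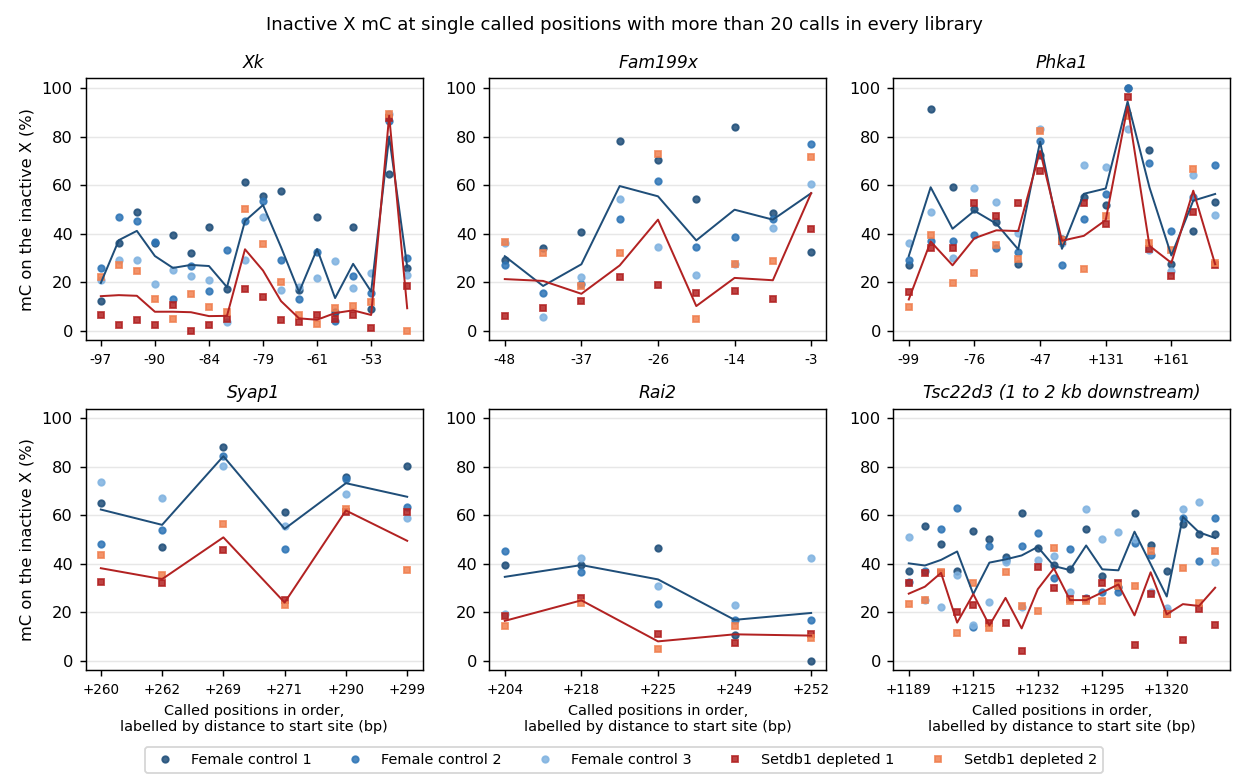
Xi mC in percent at single positions in 6 panels, positions with more than 20 calls in every library in order along the x axis and labelled by distance from the start in bp. Circles are 3 Female control and squares 2 Setdb1 depleted libraries, and lines join the group means (blue, control, red, depleted). The red line runs under the blue one along all of Syap1 and Rai2. It meets or crosses the blue line at -42 and -3 in Fam199x and meets it at +1215 in Tsc22d3. It lies above the blue line at -53, -42 and +174 in Phka1 and at +611 in Xk, the second last position of that panel. Tsc22d3 is shown from 1189 to 1345 bp downstream of a start.

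Reads with at least 3 calls show how methylated and unmethylated CpGs sat together on single molecules. At 7 genes every library had more than 20 such reads. Reads with some calls methylated and others not, called mixed here, made up 49.0 to 92.9% of the control reads as a mean of a gene. The share of reads with no methylated call was higher in the depleted mean at 6 of the 7 genes, and at 74 of the 106 Xi windows with enough reads. The median difference over the 7 genes was 14.3 points. Both depleted libraries lay above all controls at 4 of the 7, which were Xk, Bex2, Rai2 and Alg13. The same held for 26.4% of the 106 windows, where the median difference was 2.80 points. At Bex2 it came from 6 to 16 reverse-strand reads a library, since among forward-strand reads the share was 8.57, 5.56 and 7.69% in controls and 4.55 and 0% in depleted libraries. The reads carry the contrast on which the genes were chosen, so nothing is read from the excess.

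At Xk fully unmethylated reads made up 42.5, 54.5 and 50.6% in controls, against 78.6 and 59.9% in depleted libraries. At Rai2 they were 36.4, 45.2 and 50.0% against 70.4 and 66.7%, and at Alg13 22.6, 27.4 and 28.6% against 58.5 and 40.5%. At these 3 genes a larger share of reads carried no methylation, and depleted replicate 1 had the largest share at each. The strand make-up of the Alg13 reads differed, with 17, 23 and 6 reverse-strand reads in controls and 53 and 25 in depleted libraries. Among its forward-strand reads the unmethylated share was 19.4, 25.6 and 26.0% against 41.4 and 29.6%. Among its reverse-strand reads it was 29.4, 30.4 and 50.0% against 81.1 and 64.0%. Cnksr2 had only 14 to 32 such reads a library and is left out of the count above. Its fully unmethylated share was 4.00, 0 and 0% in controls, against 40.6 and 21.9% in depleted libraries.

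Syap1 and Phka1 looked different. At Syap1 fully unmethylated reads stayed rare, at 0.990 to 5.71% in controls, against 7.25 and 1.54% in depleted libraries. Fully methylated reads there were 34.0, 22.9 and 25.7% in controls, against 5.80 and 7.69% in depleted libraries, and mixed reads were 69.1% ± 5.71 (SD, n = 3) and 88.9% ± 2.70 (SD, n = 2). The make-up of these reads differed, with a median of 3 calls a read in controls 1 and 2 and of 6 in the other libraries. Within the reverse-strand reads, with a median of 6 calls in every library, 35.8, 21.2 and 18.0% were fully methylated in controls and 2.27 and 4.17% in depleted libraries, still apart. Within the forward-strand reads, with a median of 3, it was 32.5, 24.5 and 37.5% against 12.0 and 17.6%, from only 25 and 17 reads in the depleted libraries. At Phka1 between 0 and 3.23% of reads were fully unmethylated in any library. In reads that carried any methylation, mC was lower in the depleted mean at all 7 genes, with differences from -19.8 to -7.57 points, and both depleted libraries lay under all controls at 6 of them, with Rai2 the exception. Over the 102 Xi windows where this could be computed, 71 had a lower depleted mean, 28.4% had both depleted libraries under all controls, and the median difference was -3.17 points. At Fam199x 36.0% of the reads of depleted replicate 1 were fully unmethylated but only 6.25% of those of depleted replicate 2, which lay within the controls (1.22 to 12.0%). Without depleted replicate 2 the median change in fully unmethylated reads was 26.5 points and without depleted replicate 1 it was 9.54. These reads came from 1 to 5 first positions a gene and library, so many share a fragment.

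**Figure D4:**
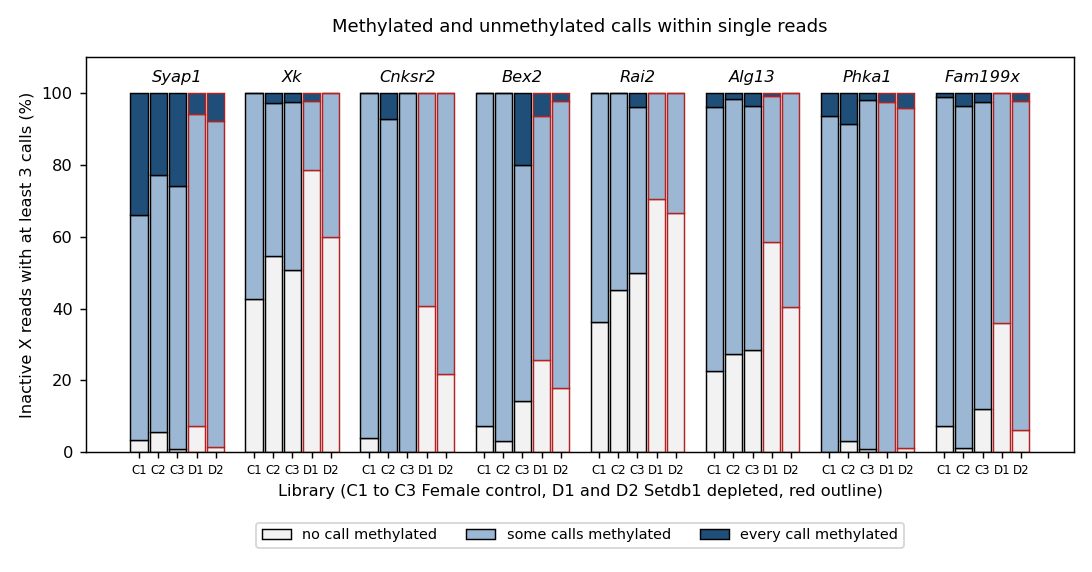
Share of Xi reads with at least 3 calls that had no call, some calls or every call methylated, in percent, as 1 stacked bar a library (C1 to C3 Female control, D1 and D2 Setdb1 depleted with red outline) at 8 genes. The unmethylated part (white) is taller in both depleted libraries than in all controls at Xk, Rai2, Alg13, Bex2 and Cnksr2 and stays short at Phka1, while at Syap1 the fully methylated part (dark) is 22.9 to 34.0% in controls and at most 7.69% in depleted libraries.

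The Xa gives a measure that did not enter the choice of the genes. It was tested with a quasi-binomial model of the calls over 11115 domesticus promoter windows of all chromosomes, of which 0.0360% (4) were past an adjusted p of 0.05. Among the 208 X windows in that fit 0% were past it, with 4 at an unadjusted p under 0.05. limma also called 0 of them (20 unadjusted), while 42 passed Fisher's exact test, which pools the calls and ignores the spread between libraries. Of the 9 genes 6 were measured on the Xa and 0 were past the threshold, each with an adjusted p of 1. Their unadjusted p ran from 0.0792 to 0.977. Fisher's test on pooled calls called 2 of them, Tsc22d3 (adjusted p = 0.00680) and Fam199x (adjusted p = 0.0217). Cnksr2, Alg13 and Phka1 had Xa control means of 0.182, 0 and 0.0567%, so a loss could not have been seen there. On simulated calls the model found 93.2% of windows shifted by 1.5 on the logit scale when libraries differed by sampling alone. It found 8.30% at an intra-library correlation of 0.01, so a missed call does not show that the Xa was alike in both groups. The shifted windows were drawn only from mC levels away from either end of the scale. Of the 6 genes only Syap1 had such a level, so these shares do not cover the others.

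Xa mC at Cnksr2 was 0% in 4 libraries and 0.546% in the third control, from 183 to 376 calls, and the zeros allow up to 0.798% in the deepest and 1.34% in the shallowest of those 4. Calls of 1 read are not independent, so these limits are too tight. At Alg13 it was 0% in all controls, which allows up to 0.781% in the shallowest, and 0.680 and 0.247% in the depleted libraries. Both depleted libraries lay above the controls there, as they did in 8.17% of the 208 Xa windows, but from only 3 and 1 methylated calls. Phka1 had at most 0.464% in any library. Fam199x was higher, with 5.56, 3.37 and 3.80% in controls, against 1.98 and 3.63% in depleted libraries, which overlap. The calls of Fam199x on the Xa differed by strand. Forward-strand positions upstream of the start had at most 1.67% in any library, while the reverse-strand position at -2 had 29.3, 19.1 and 12.8% in controls and 8.43 and 10.8% in depleted libraries. Cnksr2, Alg13 and Phka1 had at most 0.680% in any library.

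Tsc22d3 was the 1 gene of these 6 whose depleted libraries both lay under all controls on the Xa, at 12.1, 4.08 and 5.43% against 0 and 1.81%, as in 12.0% of Xa windows. The difference of -6.29 points rested on 58 to 166 calls, and it turned to 0.314 points with windows of 2 kb. Between 1 and 2 kb of a start its Xa mC was 0.545 to 0.856% in controls, against 0.592 and 2.22% in depleted libraries. Syap1 had 72.1% ± 7.27 (SD, n = 3) and 71.6% ± 0.238 (SD, n = 2), but its 3 Xa positions lie outside the exon read on the Xi, 2 of them upstream at -610 and -609, so the alleles cannot be compared there. Xk, Bex2 and Rai2 were not measured on the Xa.

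Where both alleles were called at the same positions, the Xi was higher than the Xa in every library at each of the 5 genes concerned. Over 7 shared positions of Cnksr2 the Xi had 21.3 to 56.6% and the Xa at most 0.546%. Over 16 of Phka1 it had 34.7 to 53.9% against at most 0.464%. Over 31 of Fam199x the Xi had 18.1 to 50.5% and the Xa 2.00 to 5.56%. The depleted libraries kept an Xi level well above that of the Xa at all of these genes.

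Nearby promoters on the X were set beside the 9 genes. The nearest measured windows on each side, 18 in all and 11.3 to 6049 kb away between the medians of their called positions, had differences from -13.3 to 10.3 points with a median of -4.20, near that of all X windows. Of the 18, 12 had a lower depleted mean and 6 had both depleted libraries under all controls, against 68.9 and 25.8% of all 190 Xi windows. Slc25a53, a mitochondrial carrier gene 11.3 kb from Fam199x, had 54.1, 42.5 and 40.5% in controls, against 33.7 and 51.8% in depleted libraries, which overlap. Ctps2, which makes the nucleotide CTP and lies 13.9 kb from Syap1, had 79.4, 66.7 and 81.3% against 73.1 and 62.2%, again overlapping. Bex1, of the same family as Bex2 and 148 kb away, had 76.8, 69.2 and 71.6% against 61.3 and 59.7%, with no overlap. It was the 1 measured gene of a list of 6 X-linked relatives of these genes.

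Genes known to escape X inactivation in the mouse served as a second list. Of 12, 6 were measured on the Xi, with a median difference of -0.83 points. Ddx3x, Kdm6a and Jpx, which stay active on the Xi, had at most 0.837% mC in any library, so they could lose almost nothing and kept that median small. Mid1 had 62.8% ± 5.19 (SD, n = 3) and 61.4% ± 3.32 (SD, n = 2). Shroom4 and Utp14a had 28.9% ± 10.5 (SD, n = 3) and 15.0% ± 2.26 (SD, n = 3) in the controls, and 14.8% ± 3.56 (SD, n = 2) and 7.29% ± 4.88 (SD, n = 2) in the depleted libraries. Their differences were -14.0 and -7.74 points, and both depleted libraries lay under all controls at Utp14a but not at Shroom4. The 9 genes had control means between 30.4 and 65.7% in pooled calls.

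The reference sequence around the starts was compared too, over 500 bp on each side of 1 start a window. The 9 genes had a median GC content of 64.1%, against 57.3% in the other 181 measured windows, and a median ratio of observed to expected CpGs of 0.761 against 0.609. They held a median of 74 CpGs against 48, and 8 against 6 MspI sites (CCGG). The ranges overlapped, since Tsc22d3 had 36 CpGs and Cnksr2 127, and the other windows ran from 4 to 132. These are descriptions, and the part of CpG density in the differences was not tested.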

How the data were processed

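The genes and gene lists were chosen with earlier results of these data known. The deposited values are methylation calls, 1 line for the call of a CpG by a read, methylated or not, made by the authors with Bismark after Trim Galore trimming and alignment to mm10 with strain differences masked. Reads were split by allele by the authors, and the headers name methylation extractor version 0.13.0. Whether duplicates were removed is not given in the sources used here. No filter on coverage had been applied, and reads marked by the sequencer (5.34 to 5.66% of calls) were kept.

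Calls were summed per position, allele and library, and % mC is the methylated share. Of the castaneus X positions called, 99.0% lay at reference CpGs. Positions needed more than 20 calls in every library, the minimum in the methods of the study. Windows of genes with identical positions were counted once. Named genes were the 9 members, the next in order, the nearest measured neighbours, and lists of escape genes and relatives. Some sequence is not reported here. The splits by strand, the counts over windows with at least 100 calls and the read shares over all windows were made after the values were seen.

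Libraries were the replicates. Xa windows were tested two-sided with a quasi-binomial logistic model, whose dispersion was kept at 1 or more and moderated with limma (version 3.58.1, in R 4.3.3), with Benjamini-Hochberg adjustment at 0.05 over all windows. The model was tested on simulated calls at the depth of the libraries. Other steps used Python 3.11.15 with matplotlib 3.10.9, scipy 1.17.1, pandas 2.3.3 and numpy 2.4.6. Alternatives were other call minimums, window widths, summaries and tests, the replicate number as a block, and each library left out.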

Additional observations from a re-analysis of the deposited data

How the results depend on the processing

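The median Xi difference over the 5 genes with deep positions was -15.8 points, against -16.4 over all 9 with pooled calls. When single libraries were left out it ranged from -18.8 to -11.9 over the 5 or 6 genes that then had deep positions. With the positions and measure kept, an alternative chosen after seeing the data, it ranged from -20.8 without depleted replicate 2 to -11.9 without depleted replicate 1. All 153 single-gene differences under the alternatives were lower in depleted libraries, and 11 of them moved by more than the spread between libraries. The genes were chosen for lower Xi mC in these libraries and many alternatives left a value unchanged, so nothing is read from the shared sign. Bex2 had -4.54 and Alg13 -10.3 with a minimum of 10 calls. Without control replicate 2 Bex2 had -4.89, and without control replicate 1 Alg13 had -8.01, because positions then passed the minimum and replaced pooled calls. With pooled calls kept these were -15.9 and -12.8. Xk had -7.03 with a minimum of 40. The count of genes with separate libraries was 6 to 9 of 9 over 12 alternatives. It reached 9 only without control replicate 3 or without depleted replicate 1, and leaving out a library makes separation easier. The share over all Xi windows is given only for the main setting (23.7%) and for pooled calls (25.8%). Since the genes were chosen on this contrast, nothing is read from these counts. The median change in fully unmethylated reads was 14.3 points, ranged from 9.54 to 26.5 when single libraries were left out, and was 21.9 points with reads of 1 first position weighted as 1 site.

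Over all domesticus windows, 4 were past the threshold. limma gave 0 (667 at an unadjusted p under 0.05) and Fisher's exact test 1656, windows of 2 kb gave 0 and adjustment over the X windows alone gave 0. Leaving out single libraries gave 0 to 13, with none left without either depleted library, and 10, 6 and 13 without controls 1, 2 and 3 in turn. Fisher's test called 2 of the 6 genes measured on the Xa, and no other alternative called any. With the replicate block the count was 44, of which 26 were lower, and 0 on the X. The labels give the numbers no shared origin, and same-numbered libraries did not deviate together (correlations of -0.0806 and -0.0229 over 11115 windows). The cause of these changes was not tested. With 26 calls in some libraries, depth limits Tsc22d3 most.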
